A study of Homo sapiens with 39 samples.

Results

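Interferon-stimulated genes are the genes that cells switch on when an interferon binds its receptor. The 44 genes described here are a list of such genes in common use, taken by name. A probe on the array carried the current or an earlier symbol of 43 of them, with 69 probes in all, and where a gene had several probes the brightest stood for it. Of these 43 genes, 39 were above the background of the array in every sample of at least 1 group and were tested, out of 11296 tested genes among the 20041 genes that the probes name. IFI27, IFITM1, CXCL10 and CXCL11 were above background in 0 of the 12 groups and are given by level only, and STAT2 was not analysed here.

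The cells were U87-MG, an established human glioblastoma line grown as a culture of 1 cell type, and their RNA was hybridized to Illumina bead arrays. Cultures received 16Gy or 8Gy of gamma radiation from a cesium source in 1 dose, or 0Gy, which was a sham exposure. They were sampled on days 1, 4 and 6 with 3 replicates per group, and on day 35 with 4 per group, which makes 39 samples in 12 groups. The study's methods name 3 independent replicates for the day 35 harvests but 4 experimental replicates for the day 35 arrays. The study uses the name day 35 for harvests on neighbouring days. A line in culture has no immune cells or vessels around it, and the study's methods call the replicates of days 1 to 6 independent.

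Type I interferons bind the receptor IFNAR1 and IFNAR2, whose kinases JAK1 and TYK2 activate transcription factors in the cytoplasm. IRF9 takes part in binding a short DNA element, the interferon-stimulated response element (ISRE), before the start of its target genes. The products sense foreign RNA (IFIH1, RIGI), bind or degrade it (the IFIT and OAS families, ISG20), restrict viruses at membranes (the IFITM family, BST2) and load peptides for display to T cells (TAP1, B2M, HLA-B). In irradiated tumour cells, DNA that leaks from damaged nuclei into the cytoplasm is known to be able to start the same response.

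The promoter windows of the members were searched for the core letters of the ISRE, GAAANNGAAA on either strand, where N is any base. RefSeq windows of GRCh38.p14 run from 250 bases before to 50 bases after the start of a gene, and 37 of the 44 members had at least 1 such window in the table used, 47 windows in all. The letters were found in 29 of these 47 windows (61.7%) and in 3.57% of the 35116 windows of all genes. Among the 7 members that differed from 0Gy by the test used below, 6 had a window, and 5 of these 6 held the letters in at least 1 of them, against 17 of the 27 tested members that had a window and did not differ. The 4 windows shown are those of members on which the results turn, written 5′ to 3′ on the strand of the gene, with the ISRE letters in capitals.
IFI44L, chr1:78620198-78620497, + strand: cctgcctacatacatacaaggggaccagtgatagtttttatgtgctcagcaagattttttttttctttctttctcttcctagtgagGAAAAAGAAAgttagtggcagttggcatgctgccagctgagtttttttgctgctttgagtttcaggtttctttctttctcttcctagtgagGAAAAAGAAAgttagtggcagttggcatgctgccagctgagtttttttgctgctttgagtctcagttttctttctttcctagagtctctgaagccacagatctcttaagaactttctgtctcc
IFIT1, chr10:89392373-89392672, + strand: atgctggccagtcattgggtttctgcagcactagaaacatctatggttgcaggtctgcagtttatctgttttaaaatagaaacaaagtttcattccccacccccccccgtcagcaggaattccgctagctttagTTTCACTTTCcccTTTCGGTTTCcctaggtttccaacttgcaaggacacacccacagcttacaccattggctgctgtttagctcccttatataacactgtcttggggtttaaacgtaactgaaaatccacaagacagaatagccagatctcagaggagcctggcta
IFITM3, chr11:320811-321110, - strand: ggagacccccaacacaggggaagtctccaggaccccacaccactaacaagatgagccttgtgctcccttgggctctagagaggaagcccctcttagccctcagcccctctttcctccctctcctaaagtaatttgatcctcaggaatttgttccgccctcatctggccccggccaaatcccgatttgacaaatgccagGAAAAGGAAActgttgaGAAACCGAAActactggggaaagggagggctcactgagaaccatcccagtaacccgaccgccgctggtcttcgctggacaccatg
ISG20, chr15:88638766-88639065, + strand: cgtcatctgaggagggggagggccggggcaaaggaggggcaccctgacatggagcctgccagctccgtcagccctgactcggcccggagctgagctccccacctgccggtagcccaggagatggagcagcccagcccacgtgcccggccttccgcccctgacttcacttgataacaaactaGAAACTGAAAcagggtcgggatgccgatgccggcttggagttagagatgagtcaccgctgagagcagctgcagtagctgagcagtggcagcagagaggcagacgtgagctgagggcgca

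The letters began at -164 and -73 from the start in IFI44L, at -116 and -103 in IFIT1, at -52 and -35 in IFITM3 and at -69 in ISG20. Of these 4 genes, ISG20 was higher after irradiation and the other 3 were lower, in the comparisons with 0Gy. PARP9 held them in 1 of its 2 windows, at -41, and XAF1 in neither of its 2. A match is a description of these letters and does not show that a protein binds there.

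All values are log2 signals, normalized by the authors so that the arrays share 1 distribution, and each is therefore relative to the other genes of its array. The array background, set by 455 probes against olfactory receptors, lay between 6.78 and 6.90 over the 39 arrays. Of the 43 members, 28 were above it in all 12 groups and 11 in some of them, and these 11 dim members (IFIT5, IFIH1, MX1, MX2, OAS1, OAS2, OAS3, RIGI, DDX60, BST2 and HLA-C) were close to it in the rest. Of 12 markers fixed for this line, 9 were above background in all groups, among them VIM, CD44 and NES, while GFAP, S100B and SOX2 were above it in 0 groups. Of 17 markers of other cell types, 12 were above background in 0 groups, among them PTPRC of leukocytes and PECAM1 and VWF of endothelium. Of the rest, CSF1R, listed for leukocytes, and SNAP25, listed for neurons, were above it in all 12 groups. CD14 of leukocytes was above it in 11 groups, EPCAM of epithelium in 5 and MS4A1 of leukocytes in 1. In bulk RNA, fewer cells that express a gene and less RNA per cell cannot be told apart. Members of the IFITM family and of HLA class I have closely similar sequences, and cross-hybridization of their probes was not tested.

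A gene is called here when limma gave a Benjamini-Hochberg adjusted p under 0.10 over all 11296 genes and a fold change over 1.5. On day 1 no member was called at 8Gy or at 16Gy, where 0.133% and 1.22% of all genes were called. At an unadjusted p under 0.05 there were 5 members at 8Gy (12.8%, beside 9.53% of all genes) and 9 at 16Gy (23.1%, beside 15.4%). On day 4, IFI44L was lower at 8Gy (1 of 39 members, 1.79% of all genes), and at 16Gy IFI44L and XAF1 were lower and ISG20 higher (3 of 39 members, 4.67% of all genes). By day 6, 6 of 39 members were called at 8Gy (3.23% of all genes), 5 lower and 1 higher, and 6 of 39 at 16Gy (7.86% of all genes), again 5 lower and 1 higher. IFI44L, IFIT1, IFITM2 and IFITM3 were lower and ISG20 was higher at both doses on day 6, PARP9 was called lower at 8Gy and XAF1 at 16Gy. The 2 doses of a day were set against the same 3 samples of 0Gy, so their calls are not independent of each other. Each of the 16 calls had groups that did not overlap, but calls are picked by fold and p, so this adds no separate support. Among all tested genes, groups did not overlap in 19.7% at 8Gy and 27.8% at 16Gy on day 4, and in 23.2% and 34.8% on day 6. Of the 16 calls, 0 passed the one-way analysis of variance over all 12 groups with Holm's adjustment that the study's methods name. IFIT2, IFI6, IRF1 and TAP1 passed it, and none of these was called against 0Gy. That analysis shares 1 spread with day 35, mixes days that were normalized separately and does not say which dose or day differs.

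**Figure D1:**
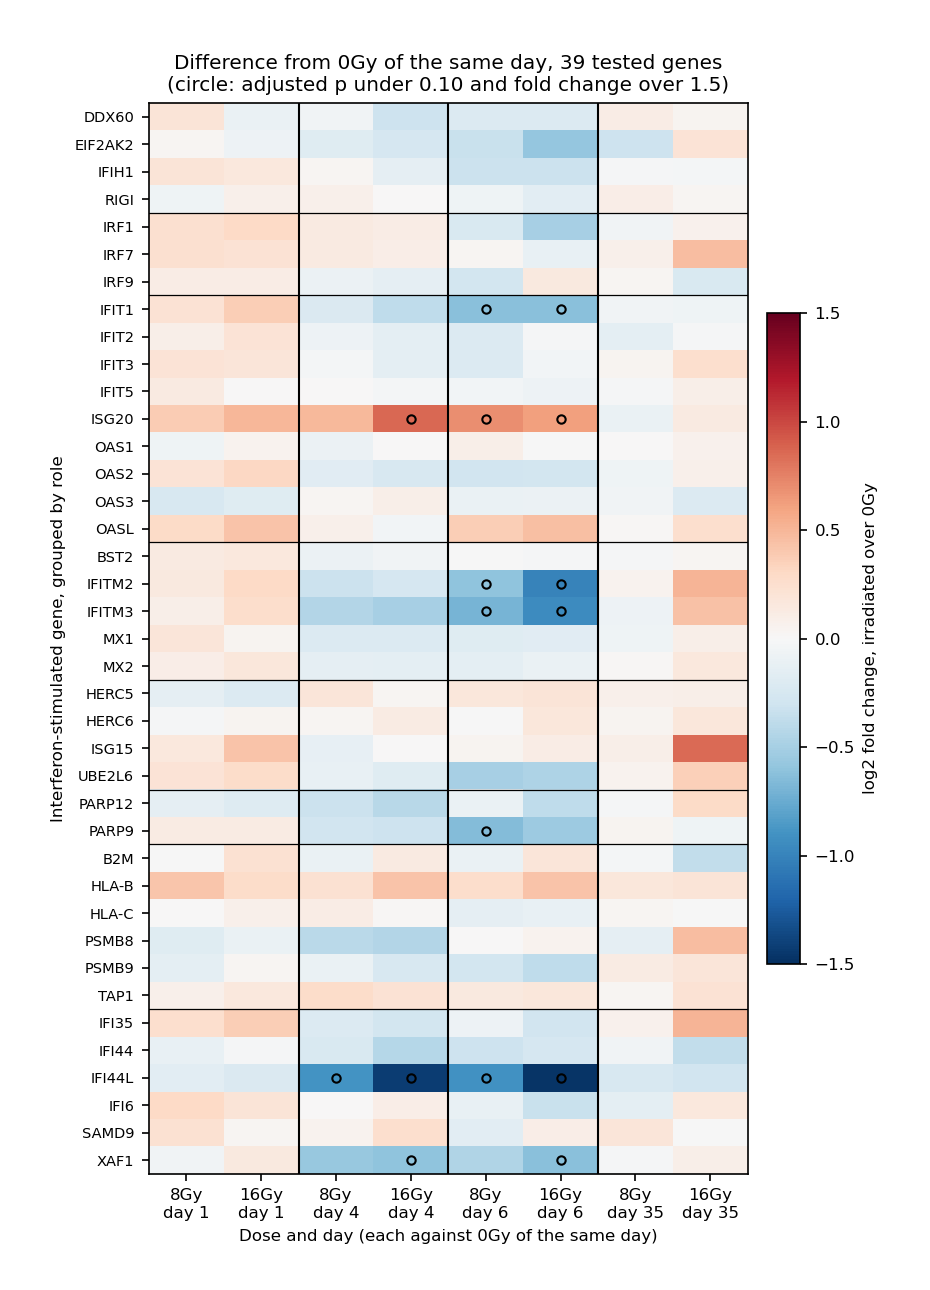
Log2 fold change of each of the 39 tested interferon-stimulated genes (rows, grouped by role) at 8Gy and 16Gy over 0Gy of the same day (columns, days 1, 4, 6 and 35). Circles mark the 16 calls, of which the 4 of IFI44L are the darkest blue row and the 3 of ISG20 are red.

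The members as a group were spread around a small shift. Their median log2 fold change was 0.12 at 8Gy and 0.15 at 16Gy on day 1, where the medians of all tested genes were 0.01 and 0.01, and 27 and 31 of the 39 members had a positive value. On day 4 the medians were -0.09 at 8Gy and -0.14 at 16Gy, beside -0.01 and -0.03 for all genes, and 15 of 39 members were positive at each dose. On day 6 they were -0.14 and -0.12, beside -0.03 and -0.03, with 9 and 11 of 39 positive. Positive values made up 69.2% and 79.5% of members at 8Gy and 16Gy on day 1, beside 53.1% and 51.3% of all genes. On day 4 they made up 38.5% at each dose, beside 46.7% and 44.5%, and on day 6 23.1% and 28.2%, beside 43.8% and 45.3%. These medians and shares describe the members that passed the filter on dim genes.

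**Figure D2:**
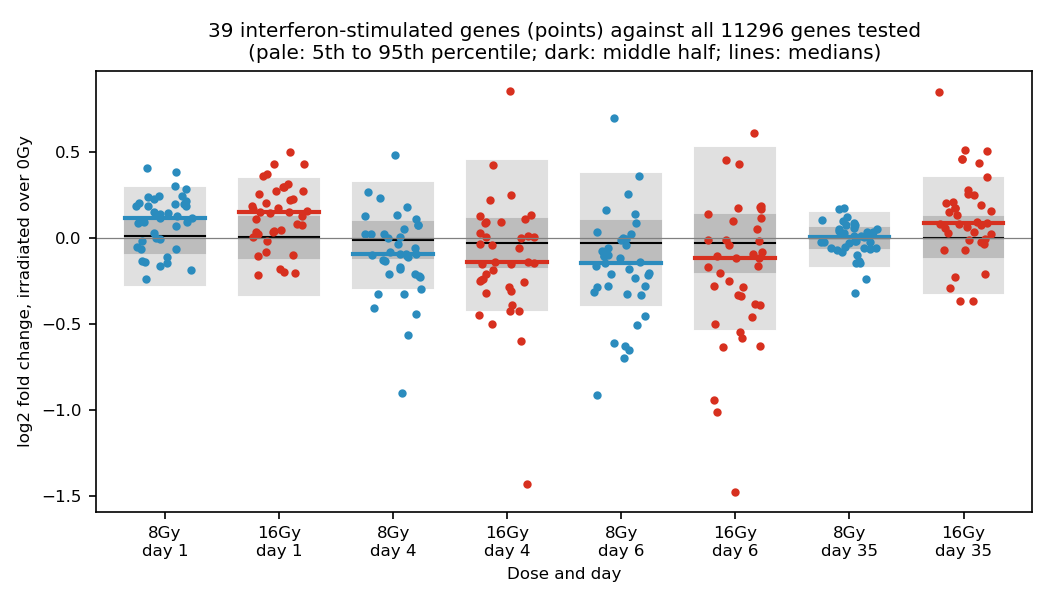
Log2 fold changes of the 39 tested interferon-stimulated genes (points, with a thick line at their median) over the range of all 11296 tested genes (pale band, 5th to 95th percentile; dark band, interquartile range; black line, median), for each dose and day. Most points lie inside the pale band, the medians are above that of all genes on day 1 and below it on days 4 and 6, and IFI44L at 16Gy is the lowest point.

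On day 1, before any member passed both thresholds, the values at 16Gy lay mostly on the high side. In 13 members all 3 samples at 16Gy were above all 3 at 0Gy, and in 1 (PARP12) all were below, where 18.9% of all tested genes had groups that did not overlap. A dimmer probe of OASL was above 0Gy too (0.24), but that of IFIT3 overlapped with it (-0.11) and that of UBE2L6 lay below it (-0.13). ISG20, an exonuclease that degrades RNA, had 7.47, 7.85 and 7.51 at 16Gy, against 6.87, 7.27 and 7.18 at 0Gy (log2 fold change 0.50, SE 0.17, adjusted p = 0.124), and it was called only without replicate 1 of 16Gy (0.61, adjusted p = 0.091), which makes the count 1. OASL, a relative of the OAS enzymes that binds RIG-I, had 9.13, 8.70 and 9.04 at 16Gy, against 8.68, 8.44 and 8.45 at 0Gy (0.43, SE 0.15, adjusted p = 0.141). ISG15, a small protein that is attached to other proteins, had 9.20, 8.98 and 9.15 at 16Gy, against 8.81, 8.37 and 8.85 at 0Gy. In these 3 genes the groups did not overlap, and the differences did not pass the test. OAS2, which makes a messenger that activates an RNA-cutting enzyme, was the only member under an adjusted p of 0.10 on that day (log2 fold change 0.31 at 16Gy, SE 0.09, adjusted p = 0.071), with a fold change below the threshold and signals close to background.

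IFI44L, an interferon-induced protein of the IFI44 family, showed the largest difference among the members. On day 4 its signal was 8.88, 9.48 and 9.48 at 0Gy, 8.46, 8.21 and 8.47 at 8Gy and 8.33, 7.73 and 7.51 at 16Gy. On day 6 it was 8.92, 9.43 and 9.68 at 0Gy, 8.78, 8.08 and 8.44 at 8Gy and 8.34, 7.55 and 7.72 at 16Gy. On both days every irradiated sample was below every sample of 0Gy, and the samples of 16Gy tended to lie below those of 8Gy, with overlap. At 16Gy it was 2.69-fold lower on day 4 (log2 fold change -1.43, SE 0.26, adjusted p = 3.9e-04) and 2.78-fold lower on day 6 (-1.47, SE 0.26, adjusted p = 1.4e-04). At 8Gy it was 1.87-fold lower on day 4 (-0.90, SE 0.26, adjusted p = 0.069) and 1.88-fold lower on day 6 (-0.91, SE 0.26, adjusted p = 0.031). The calls at 16Gy held without any single sample, with values from -1.69 to -1.12 on day 4 and from -1.74 to -1.27 on day 6. At 8Gy the call of day 4 held only without replicate 1 of 0Gy, where XAF1 was called too (range -1.13 to -0.67, adjusted p up to 0.387), and that of day 6 ended on leaving out replicate 2 or 3 of either group (range -1.15 to -0.74, adjusted p up to 0.185). On day 1 the groups overlapped, at 8.31, 8.32 and 9.21 at 0Gy, 8.15, 8.02 and 9.20 at 8Gy and 8.49, 7.93 and 8.78 at 16Gy. A dimmer probe of the gene, with a mean of 7.20, differed in the same direction by less, -0.33 on day 4 and -0.31 on day 6 at 16Gy. With the mean of its probes the calls at 8Gy ended on fold (-0.57 on day 4, -0.58 on day 6), and without the replicate term so did that of day 4 on its adjusted p (0.115).

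**Figure D3:**
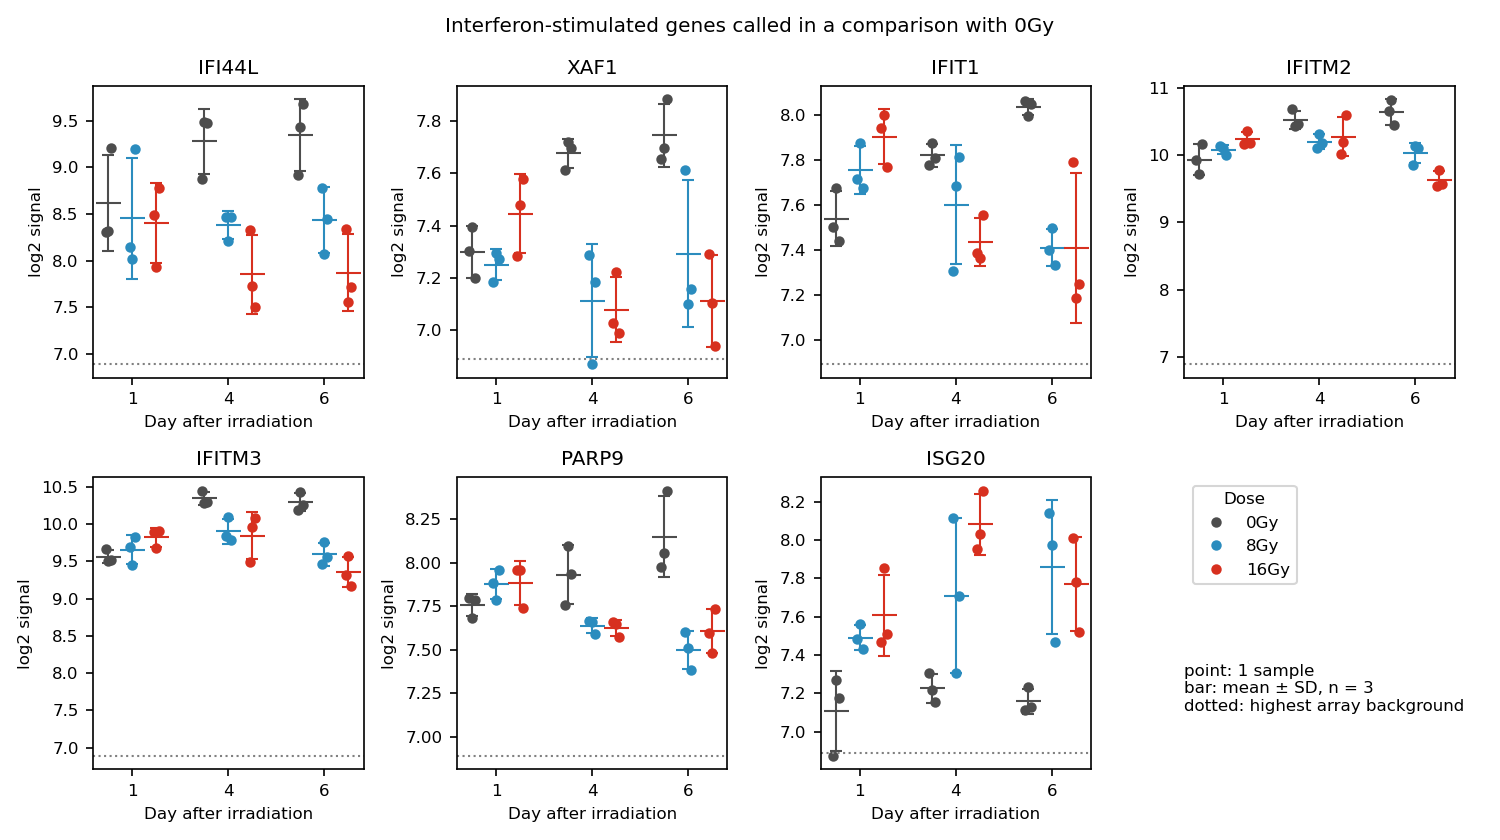
Log2 signal of the 7 interferon-stimulated genes called in a comparison with 0Gy, for every sample at 0, 8 and 16Gy on days 1, 4 and 6 (points; horizontal bar with error, mean ± SD, n = 3; dotted line, highest background of the arrays). The samples of 0Gy lie above the irradiated samples on day 6 in 6 of the panels and below them in that of ISG20.

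XAF1, a protein that counters an inhibitor of cell death, was 7.61, 7.72 and 7.70 at 0Gy, 7.29, 6.87 and 7.18 at 8Gy and 7.03, 7.22 and 6.99 at 16Gy on day 4. The irradiated samples were all lower than those of 0Gy, and some were near background. Its log2 fold change at 16Gy was -0.60 on day 4 (SE 0.13, adjusted p = 0.00217) and -0.63 on day 6 (SE 0.13, adjusted p = 6.3e-04), a change of 1.51-fold and 1.55-fold. At 8Gy it was -0.56 on day 4 (adjusted p = 0.0103) and -0.45 on day 6 (adjusted p = 0.028), under the fold threshold, and was called without replicate 1 of 0Gy or replicate 1 or 3 of 8Gy on day 4 (up to -0.64) and without replicate 1 of 8Gy on day 6 (-0.62). These values sit at the threshold. On day 4 the fold at 16Gy fell under the threshold when replicate 2 or 3 of 0Gy, or replicate 1 or 3 of 16Gy, was left out (range -0.69 to -0.55), and on day 6 when replicate 3 of either group was (range -0.72 to -0.54), with an adjusted p of at most 0.021. Another probe of XAF1 was above background in 1 group only and differed by 0.02 on day 4 and by -0.30 on day 6, and with the mean of both probes XAF1 was not called at 16Gy (-0.29 on day 4, -0.46 on day 6).

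Among the membrane and GTPase restriction factors, IFITM2 and IFITM3 were lower on day 6. Both sit in the membranes through which enveloped viruses enter a cell. IFITM2 had 10.65, 10.82 and 10.45 at 0Gy, 9.86, 10.14 and 10.10 at 8Gy and 9.55, 9.78 and 9.57 at 16Gy on that day. The 3 doses were in order and did not overlap. It was 2.01-fold lower at 16Gy (log2 fold change -1.01, SE 0.15, adjusted p = 9.4e-06) and 1.52-fold lower at 8Gy (-0.61, SE 0.15, adjusted p = 0.00923). IFITM3 had 10.20, 10.43 and 10.26 at 0Gy, 9.47, 9.76 and 9.55 at 8Gy and 9.32, 9.57 and 9.17 at 16Gy. All irradiated samples were below those of 0Gy, and the samples of 8Gy and 16Gy overlapped. It was 1.92-fold lower at 16Gy (-0.94, SE 0.15, adjusted p = 3.8e-05) and 1.62-fold lower at 8Gy (-0.70, SE 0.15, adjusted p = 0.00347). Both calls of IFITM3, and that of IFITM2 at 16Gy, held without any single sample. That of IFITM2 at 8Gy ended on leaving out replicate 1 or 2 of 0Gy, or replicate 1 of 8Gy (range -0.73 to -0.53). On day 4 neither was called, and IFITM3 at 16Gy had a log2 fold change of -0.50 (SE 0.15, adjusted p = 0.031) and was called only without replicate 3 of 16Gy (-0.63). MX1, MX2 and BST2 were above background in 6, 11 and 1 of the 12 groups, and none was called.

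Of the 9 genes whose products bind or degrade RNA, IFIT1 was lower and ISG20 higher on day 6, and the others were not called against 0Gy at any dose. IFIT1, which binds viral RNA that lacks the host cap, had 8.06, 8.00 and 8.05 at 0Gy, 7.40, 7.50 and 7.33 at 8Gy and 7.79, 7.19 and 7.25 at 16Gy. The samples of 0Gy lay close together and above all the others. It was 1.54-fold lower at 8Gy (log2 fold change -0.63, SE 0.14, adjusted p = 0.00398) and at 16Gy (-0.63, SE 0.14, adjusted p = 0.00146). The call at 8Gy held without any single sample, and that at 16Gy ended on leaving out its replicate 2 or 3 (range -0.85 to -0.49). On day 1 the samples of IFIT1 at 16Gy were all above those of 0Gy, with 7.50, 7.68 and 7.44 at 0Gy, 7.71, 7.88 and 7.68 at 8Gy and 7.94, 8.00 and 7.77 at 16Gy, a difference that did not pass the test (0.36 at 16Gy, adjusted p = 0.185).

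ISG20 was the only member called higher after irradiation. On day 4 it had 7.31, 7.22 and 7.15 at 0Gy, 8.12, 7.30 and 7.71 at 8Gy and 7.95, 8.03 and 8.26 at 16Gy. The samples of 16Gy were all above those of 0Gy, and 1 sample of 8Gy lay among those of 0Gy (log2 fold change 0.48 at 8Gy, called only without its replicate 2, at 0.73). The change at 16Gy was 1.81-fold (log2 fold change 0.86, SE 0.17, adjusted p = 7.8e-04) and held without any single sample (range 0.72 to 0.96). On day 6 it had 7.11, 7.23 and 7.13 at 0Gy, 8.14, 7.97 and 7.47 at 8Gy and 8.01, 7.78 and 7.52 at 16Gy. It was 1.63-fold higher at 8Gy (0.70, SE 0.17, adjusted p = 0.00763) and 1.53-fold higher at 16Gy (0.61, SE 0.17, adjusted p = 0.0093). On that day, leaving out replicate 1 of 8Gy ended the call there (range 0.57 to 0.88), and leaving out replicate 1 of either group ended that at 16Gy (range 0.51 to 0.71). OASL, which had the highest mean of this role, had 7.93, 8.26 and 8.41 at 0Gy, 8.48, 8.44 and 8.78 at 8Gy and 8.52, 8.72 and 8.72 at 16Gy on day 6. It was above 0Gy at both doses without reaching the fold threshold (0.36, adjusted p = 0.155 at 8Gy and 0.45, adjusted p = 0.031 at 16Gy). Its dimmer probe, above background in all 12 groups, differed by -0.07 at 8Gy and by 0.09 at 16Gy, with overlap.

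PARP9 and PARP12 belong to the PARP family, many of whose members attach ADP-ribose to proteins. PARP9 had 7.98, 8.06 and 8.41 at 0Gy, 7.60, 7.51 and 7.38 at 8Gy and 7.60, 7.48 and 7.74 at 16Gy on day 6, with all irradiated samples lower. It was called at 8Gy (log2 fold change -0.65, SE 0.12, adjusted p = 8.1e-04) and missed the fold threshold at 16Gy (-0.54, SE 0.12, adjusted p = 0.00193), where it was called without replicate 1 or 2 of 0Gy or replicate 3 of 16Gy (up to -0.64). Leaving out replicate 3 of 0Gy or of 8Gy ended the call (range -0.74 to -0.51). Its dimmer probe differed by -0.07 at 8Gy and by -0.28 at 16Gy, and with the mean of both the call at 8Gy ended (-0.36). PARP12 had 8.38, 8.78 and 8.65 at 0Gy, 8.54, 8.46 and 8.52 at 8Gy and 8.07, 8.30 and 8.29 at 16Gy on day 6, and was not called (-0.39, SE 0.14, adjusted p = 0.052 at 16Gy).

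No gene of RNA and DNA sensing was called. EIF2AK2, the kinase PKR, which stops translation when it binds double-stranded RNA, had 9.85, 9.71 and 9.69 at 0Gy, 9.77, 9.04 and 9.44 at 8Gy and 9.56, 9.10 and 8.84 at 16Gy on day 6. All samples of 16Gy were below those of 0Gy, at a log2 fold change just short of the fold threshold (-0.58, SE 0.17, adjusted p = 0.014) that passed it without replicate 2 or 3 of 0Gy or replicate 1 of 16Gy (up to -0.76). IFIH1, a sensor of long double-stranded RNA, differed on day 6 by -0.32 at 8Gy (SE 0.08, adjusted p = 0.016) and by -0.33 at 16Gy (SE 0.08, adjusted p = 0.00596), near background. Of the transcription factors, IRF1 had 10.22, 10.34 and 9.78 at 0Gy, 10.02, 9.85 and 9.78 at 8Gy and 9.85, 9.76 and 9.23 at 16Gy on day 6. Its groups overlapped, and it was not called (-0.50, SE 0.18, adjusted p = 0.045 at 16Gy), although it was without replicate 3 of 0Gy (-0.65) or replicate 1 of 16Gy (-0.63). IRF7 and IRF9 were within 0.30 of 0Gy at both doses on days 1, 4 and 6.

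UBE2L6, the enzyme that carries ISG15 to its targets, had 12.14, 12.25 and 11.82 at 0Gy, 11.57, 11.57 and 11.57 at 8Gy and 11.64, 11.65 and 11.54 at 16Gy on day 6. All irradiated samples were lower, by less than the fold threshold (-0.50, SE 0.13, adjusted p = 0.015 at 8Gy and -0.46, SE 0.13, adjusted p = 0.012 at 16Gy), and at 8Gy it was called only without replicate 3 of 0Gy (-0.62). Its dimmer probe, above background in all 12 groups, differed by -0.12 at 8Gy and by 0.05 at 16Gy, with overlap. ISG15 itself differed little on that day, with 8.81, 9.11 and 8.95 at 16Gy, against 8.85, 8.90 and 8.77 at 0Gy. HERC5, a ligase for ISG15, and HERC6 were not called either.

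In antigen presentation none of the 6 genes was called against 0Gy. B2M, the light chain of HLA class I and the brightest member, had 13.41, 13.69 and 13.44 at 0Gy, 13.50, 13.49 and 13.23 at 8Gy and 13.77, 13.55 and 13.77 at 16Gy on day 6, and the groups overlapped. HLA-B, a heavy chain of class I, had 11.81, 11.98 and 11.92 at 0Gy, 12.09, 12.47 and 11.93 at 8Gy and 12.15, 12.58 and 12.28 at 16Gy. Its samples at 16Gy were all above those of 0Gy on days 4 and 6, by a log2 fold change of 0.42 (SE 0.14, adjusted p = 0.042) and 0.43 (SE 0.14, adjusted p = 0.024), below the fold threshold. PSMB9, a catalytic subunit of the immunoproteasome, differed by -0.38 on day 6 at 16Gy (SE 0.12, adjusted p = 0.032). IFI6, a mitochondrial protein and the brightest of the other induced genes, had 10.14, 10.52 and 10.26 at 0Gy, 9.94, 10.33 and 10.30 at 8Gy and 9.94, 10.13 and 9.85 at 16Gy on day 6 and was not called. The 32 tested members that were called at neither dose on days 1, 4 and 6 had log2 fold changes between -0.20 (HERC5) and 0.43 (OASL) at 16Gy on day 1, between -0.44 (PSMB8) and 0.42 (HLA-B) on day 4 and between -0.58 (EIF2AK2) and 0.45 (OASL) on day 6. On day 6 the means of IFIT2 (7.60 at 16Gy, 7.61 at 0Gy), IFIT3 (7.60 and 7.64), PSMB8 (9.48 and 9.42) and SAMD9 (7.99 and 7.89) differed by at most 0.10 on the log2 scale, and TAP1, the peptide transporter, had 10.10 at 16Gy and 9.92 at 0Gy. Neither of the chemokines could be tested. CXCL10, which draws T cells, was between 6.59 and 6.95 in all 39 samples, and CXCL11 between 6.56 and 6.86.

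The doses were also compared with each other, 16Gy against 8Gy. No member was called on day 1 (0% of all genes), day 4 (0.0177%) or day 6 (0.398%), and at an unadjusted p under 0.05 there were 1, 2 and 5 members on these days (2.56%, 5.13% and 12.8%, beside 3.49%, 4.96% and 12.1% of all genes). On day 6 IFITM2 was lower at 16Gy than at 8Gy by 0.40 on the log2 scale without overlap (log2 fold change -0.40, SE 0.15, adjusted p = 0.262), and IFI44L had a log2 fold change of -0.56 (SE 0.26, adjusted p = 0.386) with overlap. IFIT1 had -0.00 (SE 0.14) and PARP9 0.11 (SE 0.12). The standard errors leave differences of this size between the doses undecided.

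The change over time within each dose was tested as well. In cells at 0Gy, 6 of 39 members were called on day 4 against day 1 (6.43% of all genes). HLA-B (log2 fold change 0.68), IFI44L (0.66), IFITM2 (0.59), IFITM3 (0.78) and IRF1 (0.70) were higher and SAMD9, a protein that restricts poxviruses, was lower (-0.62). The median over the 39 was 0.25, with 32 positive, beside 0.01 for all genes. IFITM3 had 10.45, 10.29 and 10.30 on day 4, against 9.67, 9.51 and 9.52 on day 1 (SE 0.15, adjusted p = 6.1e-04), and HLA-B had 11.98, 11.86 and 11.81 on day 4, against 11.24, 11.29 and 11.09 on day 1 (SE 0.14, adjusted p = 9.0e-04). Both held without any single sample. IRF1 was lost without replicate 1 of day 1 (range 0.58 to 0.92), SAMD9 without replicate 2 of day 1 (range -0.75 to -0.49), IFITM2 without replicate 2 of day 1 or 1 of day 4 (range 0.45 to 0.71) and IFI44L without replicate 1 or 2 of day 1 or replicate 2 or 3 of day 4 (range 0.43 to 0.89). IFI44L was also lost with the mean of its probes (0.39, adjusted p = 0.129), with no filter on dim genes (adjusted p = 0.110), with no mean-variance trend (adjusted p = 0.120) and without the replicate term (adjusted p = 0.124). Without replicate 2 of day 1 the count was 3. Between days 4 and 6 no member was called at 0Gy (0% of all genes), and 4 had an unadjusted p under 0.05 (10.3%, beside 4.03% of all genes).

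At 8Gy, 2 of 39 members were called on day 4 against day 1 (2.89% of all genes), IRF1 higher (0.60, SE 0.18, adjusted p = 0.048) and SAMD9 lower (-0.79, SE 0.17, adjusted p = 0.00595). The call of IRF1 held in 2 of the 6 fits that left out 1 sample (range 0.53 to 0.65), and that of SAMD9 in all 6. Without replicate 3 of day 4 the count was 4, and without replicate 2 of day 1, or replicate 1 or 2 of day 4, it was 1. On day 6 against day 4 none was called at 8Gy (0.0177% of all genes), and 2 had an unadjusted p under 0.05 (5.13%, beside 4.84% of all genes). At 16Gy, 3 of 39 were called on day 4 against day 1 (4.2% of all genes). HLA-B was higher (0.83, SE 0.14, adjusted p = 1.3e-04), and IFI44 (-0.79, SE 0.18, adjusted p = 0.0062) and OASL (-0.63, SE 0.15, adjusted p = 0.00629) were lower. IFI44 had 8.76, 8.20 and 8.37 on day 4, against 9.50, 8.91 and 9.29 on day 1. The calls of HLA-B and IFI44 held without any single sample, that of OASL was lost without replicate 1 of day 1 or replicate 3 of day 4 (range -0.78 to -0.47) and with the mean of its probes (-0.46), and without replicate 2 of day 1 or replicate 1 of day 4 the count was 5. IFITM2 was the only member called at 16Gy on day 6 against day 4 (0.23% of all genes), at -0.64 (SE 0.15, adjusted p = 0.084). Leaving out replicate 2 or 3 of day 4, or replicate 1 or 3 of day 6, ended that call (range -0.75 to -0.47), and without replicate 1 of day 4 the count was 3.

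**Figure D4:**
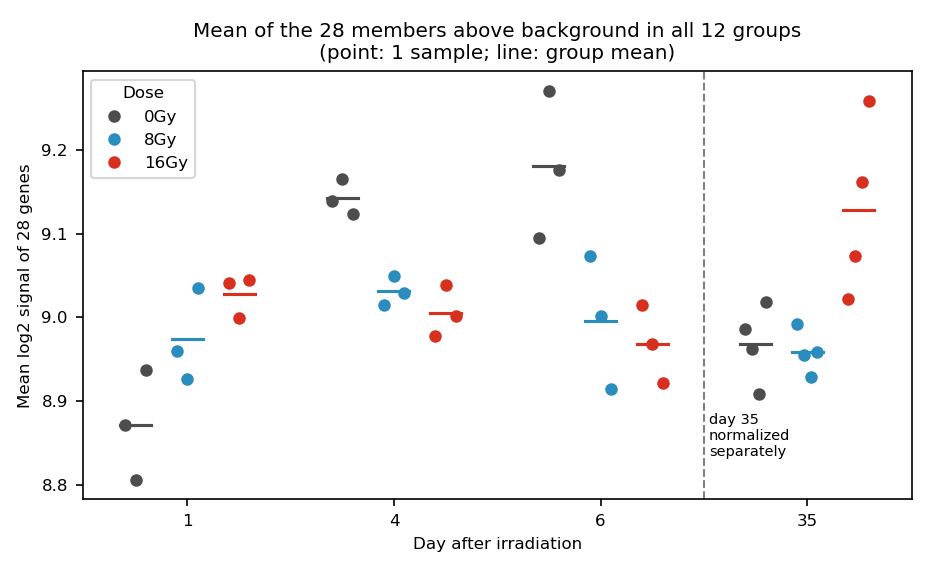
Mean log2 signal of the 28 interferon-stimulated genes above background in all 12 groups, for each sample (points) and group (lines), by dose and day. At 16Gy the samples lie between 8.999 and 9.045 on day 1 and between 8.922 and 9.015 on day 6, against 8.807 to 8.937 and 9.095 to 9.270 at 0Gy. Day 35 was normalized separately.

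The mean of the 28 members that were above background in every group was taken for each sample as a description. On day 1 it was 8.871, 8.807 and 8.937 at 0Gy, 8.960, 8.927 and 9.035 at 8Gy and 9.040, 8.999 and 9.045 at 16Gy, so the samples of 0Gy were the low ones and those of 16Gy did not overlap with them. On day 4 it was 9.139, 9.165 and 9.123 at 0Gy, 9.015, 9.050 and 9.029 at 8Gy and 8.977, 9.038 and 9.002 at 16Gy, and here the samples of 0Gy were the high ones. On day 6 it was 9.095, 9.270 and 9.175 at 0Gy, 9.073, 9.001 and 8.915 at 8Gy and 9.015, 8.968 and 8.922 at 16Gy, with the samples of 0Gy again highest. The mean over all tested genes stayed between 8.43 and 8.46 in these 27 samples.

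Whether the difference from 0Gy changed between days was tested for each dose. For 16Gy, day 4 against day 1, 5 of 39 members were called (4.61% of all genes), and in all 5 the difference from 0Gy had moved down. They were IFI44L (-1.21, SE 0.37, adjusted p = 0.062), IFITM3 (-0.76, SE 0.21, adjusted p = 0.042), IFIT1 (-0.75, SE 0.19, adjusted p = 0.026), XAF1 (-0.74, SE 0.18, adjusted p = 0.017) and IFI35 (-0.65, SE 0.20, adjusted p = 0.073). IFI35, a leucine zipper protein that partners with NMI, had 8.97, 9.04 and 9.18 at 16Gy, against 8.76, 8.42 and 8.89 at 0Gy on day 1, and 8.70, 9.10 and 8.92 at 16Gy, against 9.36, 9.09 and 9.11 at 0Gy on day 4. It was above 0Gy on day 1 and overlapped with it on day 4. The calls of IFIT1 and XAF1 held in all 12 fits that left out 1 sample, that of IFITM3 in 8, and those of IFI44L and IFI35 in 5 each. That of XAF1 ended with the mean of its probes (-0.39), and that of IFI35 with no filter on dim genes (adjusted p = 0.119). The count was 2 without replicate 2 of 0Gy or replicate 3 of 16Gy on day 1, and 3 without replicate 1 of 0Gy on day 1 or replicate 1 of 16Gy on day 4. No member was called for 8Gy, day 4 against day 1 (0.39% of all genes), or for day 6 against day 4 at 8Gy (0%) or 16Gy (0.062%), where 9, 5 and 5 members had an unadjusted p under 0.05 (23.1%, 12.8% and 12.8%, beside 9.1%, 3.42% and 6.6% of all genes). These tests use the same 0Gy samples as the comparisons over time at 0Gy, in which IFI44L and IFITM3 were higher on day 4. Within 16Gy, none of the 5 was called on day 4 against day 1. From day 1 to day 4 the mean of IFITM3 went from 9.565 to 10.345 at 0Gy and from 9.825 to 9.847 at 16Gy. IFI44L went from 8.61 to 9.28 at 0Gy and from 8.40 to 7.85 at 16Gy. IFIT1 went from 7.54 to 7.82 and from 7.90 to 7.43, and XAF1 from 7.30 to 7.68 and from 7.45 to 7.08. IFI35 went from 8.69 to 9.19 and from 9.06 to 8.91.

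Genes around the members were counted from lists of the same pathway. Of 21 interferon genes, 1 was above background in any group, and IFNB1, which encodes interferon beta, was above it in 0 groups, at 6.27 to 6.75 over the 39 samples. CGAS and STING1, the cytoplasmic DNA sensor and its adaptor, were also above background in 0 groups, at 6.27 to 6.71 and 6.50 to 6.96, while the receptor genes IFNAR1 and IFNAR2 were above it in all 12. None of the 9 tested receptors and kinases and none of the ligands was called at any dose or time. The shares of all genes called on day 6, 3.23% (8Gy) and 7.86% (16Gy), are the background of these counts, and 1 gene of 12 is close to that of 16Gy. TICAM1, the adaptor of the RNA sensor TLR3, was the 1 of 12 tested genes of the sensing route that was called on day 6, higher at 8Gy (0.60, SE 0.17, adjusted p = 0.027) and at 16Gy (0.62, SE 0.17, adjusted p = 0.01016). SOCS3, an inhibitor of cytokine signalling, was the 1 of 12 tested negative regulators called on that day, higher at 8Gy (0.67, SE 0.15, adjusted p = 0.00513) and at 16Gy (0.83, SE 0.15, adjusted p = 1.9e-04). Of 27 further interferon-induced genes, GBP2, a GTPase induced above all by interferon gamma, was lower on day 6 at 8Gy (-0.70, SE 0.15, adjusted p = 0.00222) and at 16Gy (-1.07, SE 0.15, adjusted p = 3.0e-06), and their median was -0.15 and -0.24, beside -0.03 and -0.03 for all genes. In the change of the 16Gy effect, day 4 against day 1, 5 of these 27 were called lower and 0 higher, beside 4.61% of all genes called. They were EPSTI1, GBP2, SP110, TRIM22 and TRIM5. Of 18 further antigen presentation genes, CANX, CD74, HLA-DMA and PSMB10 were lower at 16Gy on day 6, by -0.66, -0.60, -0.78 and -0.77, and none was called at 8Gy. CD74 and HLA-DMA serve HLA class II, and PSMB10 is a subunit of the immunoproteasome.

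On day 35 the replicates have to be described before the doses. The array of 16Gy replicate 4 stood apart from the other 11 day 35 arrays, with correlations over the tested genes of 0.884 to 0.950 with them, where those among the other 11 were at least 0.958. In it 229 genes were over 1 log2 unit above all other day 35 arrays and 149 over 1 unit below, against at most 1 and 12 in any other array. RNU4-1, a small nuclear RNA, was 13.69 in it and at most 7.01 in the others. Among the 39 members, 17 were the highest and 9 the lowest of all 12 arrays there. Replicate 4 was also the odd one at the other doses. It was the highest or lowest of its group in 33 of 39 members at 16Gy, in 35 at 8Gy and in 31 at 0Gy, and 14 members were highest in it at all 3 doses and 9 lowest at all 3. For ISG15, IFITM3, IFI44L and HLA-B the folds at 16Gy are given with and without replicate 4. Other folds, counts, medians, spreads and means of day 35 include it.

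**Figure D5:**
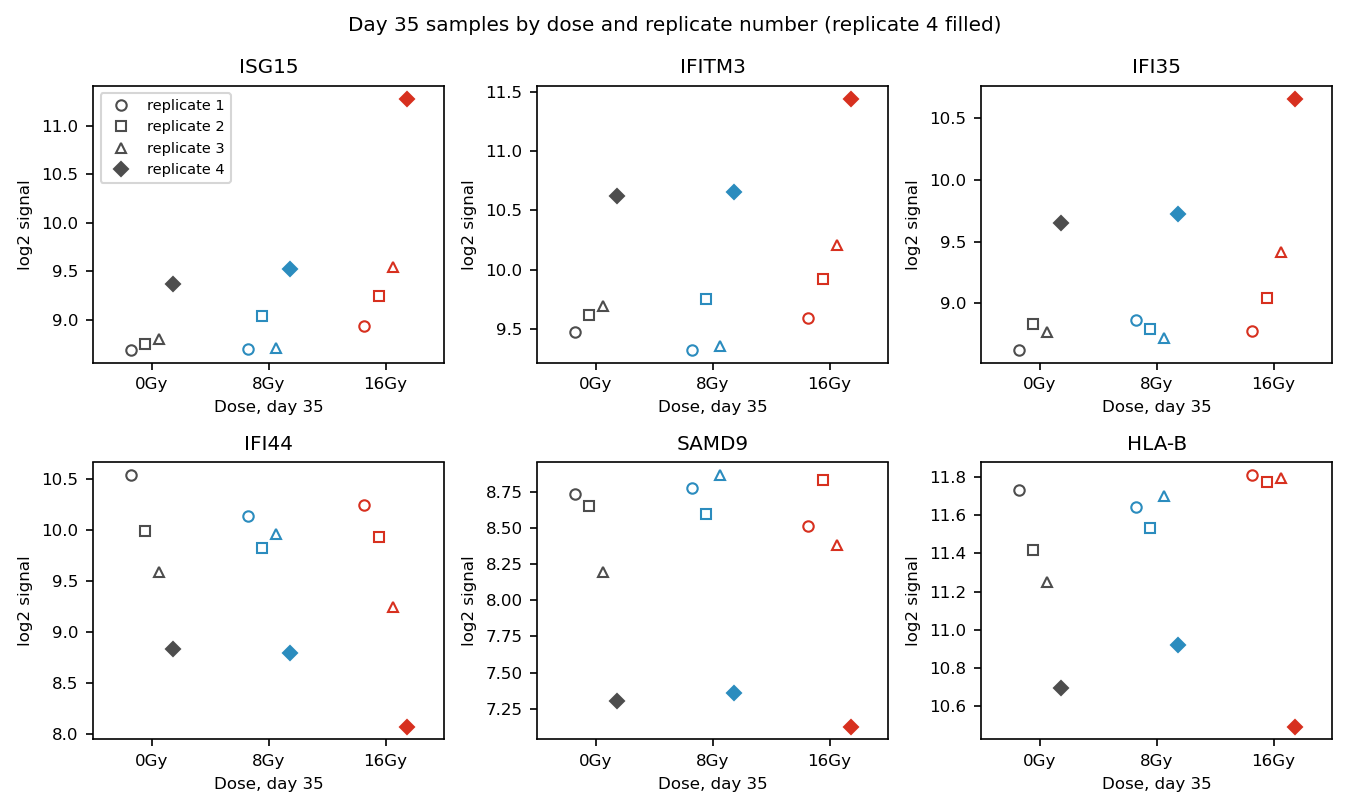
Log2 signal of 6 interferon-stimulated genes in the 12 day 35 samples by dose, with a symbol for each replicate number (replicate 4 filled). Replicate 4 is the highest sample of its dose in ISG15, IFITM3 and IFI35 and the lowest in IFI44, SAMD9 and HLA-B, most of all at 16Gy.

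No member was called on day 35 at 8Gy (0% of all genes) or at 16Gy (0.00885% of all genes, 1 gene), nor in 16Gy against 8Gy (0%). At an unadjusted p under 0.05 there were 1 member at 8Gy, 0 at 16Gy and 0 between the doses, beside 0.611%, 3.94% and 4.63% of all genes. These counts, and the adjusted p-values of this paragraph where no blocked fit is named, come from the fit without the replicate number. They ignore the pairing described below, and such counts from a blocked fit are not given. ISG15 had 8.69, 8.75, 8.80 and 9.37 at 0Gy, 8.70, 9.04, 8.71 and 9.53 at 8Gy and 8.93, 9.25, 9.55 and 11.28 at 16Gy, in the order of replicates 1 to 4. Its log2 fold change at 16Gy was 0.85 with all samples, 0.34 without 16Gy replicate 4 and 0.50 without replicate 4 of every dose (adjusted p = 0.857, 1.00 and 0.782). IFITM3 had 9.48, 9.62, 9.69 and 10.62 at 0Gy, 9.32, 9.76, 9.35 and 10.66 at 8Gy and 9.59, 9.92, 10.21 and 11.45 at 16Gy, and its log2 fold change at 16Gy was 0.44 with all samples, 0.05 without 16Gy replicate 4 and 0.31 without replicate 4 of every dose. IFI44L, which was lower on days 4 and 6, had 9.97, 9.35, 9.06 and 8.33 at 0Gy, 9.46, 8.95, 9.06 and 8.31 at 8Gy and 9.84, 9.14, 8.67 and 7.92 at 16Gy. Its log2 fold change at 16Gy was -0.29 with all samples, 0.03 without 16Gy replicate 4 and -0.25 without replicate 4 of every dose. HLA-B was 11.81, 11.77, 11.79 and 10.50 at 16Gy, against 11.73, 11.42, 11.25 and 10.70 at 0Gy, and its log2 fold change was 0.19 with all samples, 0.52 (SE 0.22) without 16Gy replicate 4 and 0.32 (SE 0.13) without replicate 4 of every dose (adjusted p = 0.898, 1.00 and 0.782). Samples of day 35 with the same replicate number deviated together, so the differences were also taken within each number. For 16Gy minus 0Gy in replicates 1 to 4 they were 0.24, 0.49, 0.75 and 1.91 in ISG15, 0.11, 0.30, 0.52 and 0.83 in IFITM3, -0.14, -0.22, -0.39 and -0.41 in IFI44L and 0.08, 0.36, 0.54 and -0.20 in HLA-B. ISG15, IFITM3 and IFI44L thus had 1 sign in all 4 pairs. The study's methods name 3 independent replicates for the harvests and 4 for the arrays, so the 4 pairs cannot be taken as all independent of each other. Among the 39 members, 12 were higher at 16Gy in all 4 pairs and 3 were lower in all 4. The share of all tested genes with 1 sign in all 4 pairs was not computed. These counts therefore have no background beside them. In a fit blocked by replicate number, standard errors were 0.24 for ISG15, 0.14 for IFITM3, 0.14 for IFI44L and 0.14 for HLA-B, and no member was called (adjusted p = 0.344 for ISG15 and IFITM3, 0.367 for IFI44L and 0.467 for HLA-B). OASL was the only member whose 4 samples at 16Gy were all above those of 0Gy (8.83, 8.98, 8.87 and 8.99 at 16Gy, against 8.58, 8.76, 8.78 and 8.53 at 0Gy, log2 fold change 0.26, SE 0.14, adjusted p = 0.857 in the fit without the replicate number). That is 1 of 39 members, beside 2.58% of all tested genes with groups that did not overlap in this comparison. The median spread within a group over the 39 members was 0.28 at 16Gy, 0.21 at 8Gy and 0.21 at 0Gy on day 35 (SD, n = 4 each), and between 0.09 and 0.15 in the groups of days 1 to 6. The median log2 fold change of the 39 was 0.01 at 8Gy and 0.09 at 16Gy, beside 0.00 and 0.00 for all genes. The mean of the 28 members above background in every group lay between 9.02 and 9.26 at 16Gy, against 8.91 to 9.02 at 0Gy. Levels of day 35 were not set against those of days 1 to 6, because the authors normalized them separately.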

How the data were processed

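RNA of 39 samples of U87-MG cells was measured on Illumina HumanHT-12 v4 bead arrays. The authors extracted signals in GenomeStudio, quantile normalized and log2 transformed them separately for days 1 to 6 and for day 35, corrected the first set for batches with ComBat, and averaged 2 technical runs of each replicate 1 of days 1 to 6. The deposited log2 values were used as given, since 0 of them lay under the floor of 16. A second deposited table held 96 columns of 48 arrays whose names could not be matched to samples, and it was not used. The batches that ComBat removed are not named in the sources used here.

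Of 47300 probes, 30100 named 1 gene. A gene was tested if its brightest probe exceeded the 95th percentile of the olfactory receptor probes in every sample of at least 1 group, which left 56.4% of the 20041 named genes. limma 3.58.1 in R 4.3.3 fitted the 27 samples of days 1 to 6 in 1 model that also held the replicate number. That term followed an earlier report on these data. The 12 samples of day 35 were fitted without it, and p-values were adjusted over all tested genes. Samples with the same number had mean correlations of deviations between -0.13 and 0.39 on days 1 to 6, so pairing was not established there. On day 35 they lay between 0.28 and 0.71, and every pair exceeded 0.1, so those samples were taken as paired and the blocked values are given. Values are given per sample for members called against 0Gy or in a change of the effect, and for the brightest member of each role. The procedure was tested on simulated data. Alternatives covered the replicate term, the variance trend, the filter, the probe, the normalization, the samples and the methods' analysis of variance. Day 35 without replicate 4 of every dose was added after seeing the data. The members and lists were chosen with earlier results of these data known. Array intensities give no read depth, and the number of arrays limits the precision.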

Additional observations from a re-analysis of the deposited data

Results flagged for a closer look

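On day 35, 1 sample lay far from the other 3 of its group by Dixon's ratio in 10 of 117 tests over the 39 members and 3 doses (8.55%), where chance gives about 1 in 20. All 10 were replicate 4, and 3 of them were at 16Gy. At 16Gy, UBE2L6 was 12.56 in it (11.43 to 11.54 in the others), HLA-B 10.50 (11.77 to 11.81) and DDX60 6.78 (7.19 to 7.26). At 8Gy, IFI35 was 9.73 (8.72 to 8.86), MX2 7.49 (7.03 to 7.05) and IFIH1 6.92 (7.02 to 7.04). At 0Gy, ISG15 was 9.37 (8.69 to 8.80), MX1 7.54 (6.92 to 7.01), MX2 7.55 (6.98 to 7.02) and IRF7 7.88 (7.53 to 7.55).

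The difference between 16Gy and 0Gy changed from day 1 to day 4 in 5 members by the test of that change in limma: IFI44L by -1.21, IFITM3 by -0.76, IFIT1 by -0.75, XAF1 by -0.74 and IFI35 by -0.65 on the log2 scale.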

How the results depend on the processing

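Under a stricter background and fits of each day alone, the number of members called stayed within 1.5 times its value in each comparison that was fitted. It did so under joint quantile normalization of all samples too, but the values were already normalized within each fitted set, so this setting could change little. Fitting with no floor could change nothing, because 0 values lay under the floor. For 8Gy on day 4 the 1 call became 0 with no replicate block, with no mean-variance trend, with the mean of a gene's probes and in the methods' analysis of variance with Holm's adjustment. In that analysis of variance the counts were also 0 at 16Gy on day 4 (against 3), at 8Gy on day 6 (against 6) and at 16Gy on day 6 (against 6). It pools the spread of day 35 with that of days 1 to 6 and does not say which dose or day differs. With no filter on dim genes the 1 call of 16Gy, day 6 against day 4, became 0. No value of a named gene changed sign where it was called. With no replicate block, IFI44L lost its calls at 8Gy on day 4 (adjusted p = 0.115) and at 0Gy, day 4 against day 1 (adjusted p = 0.124), and on day 35 a replicate block left 0 members called at both doses and between them.

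Leaving out each sample in turn gave 0 to 1 members at 16Gy on day 1, 0 to 2 at 8Gy and 2 to 3 at 16Gy on day 4, and 4 to 5 at 8Gy and 5 to 8 at 16Gy on day 6. It gave 3 to 8 at 0Gy, 1 to 4 at 8Gy and 2 to 5 at 16Gy for day 4 against day 1, 0 to 3 for 16Gy, day 6 against day 4, and 2 to 7 for the change of the 16Gy effect. On day 35 it gave 0 throughout. With the mean of a gene's probes, IFI44L at 8Gy (-0.57 on day 4, -0.58 on day 6), XAF1 at 16Gy (-0.29 and -0.46), PARP9 at 8Gy on day 6 (-0.36), OASL at 16Gy, day 4 against day 1 (-0.46), IFI44L at 0Gy, day 4 against day 1 (0.39), and XAF1 in the change of the 16Gy effect (-0.39) were no longer called. IFI44L at 0Gy, day 4 against day 1, was also lost with no filter on dim genes (adjusted p = 0.110) and with no mean-variance trend (adjusted p = 0.120), and IFI35 in the change of the 16Gy effect with no filter (adjusted p = 0.119).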
